A study of Mus musculus with 8 samples.

Results

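A set of 10 genes of inflammatory signalling was followed in mSCC-20 cells, a mouse line (strain FVB/N) of cutaneous squamous cell carcinoma. They encode the cytokines Il1a, Il1b, Il6, Lif and Tnf, the interleukin-1 receptor antagonist Il1rn, the colony-stimulating factors Csf1, Csf2 and Csf3, and the prostaglandin synthase Ptgs2. They were found by gene name among the probes of the array design, which gave 10 of 30139 genes and 12 of 39429 probes, since Csf1 had 3 probes and the others 1 each. Total RNA was measured on 8 one-colour Agilent arrays (Cy3), in 4 groups of 2. Cells transfected with miR-193b were set against NC replicates 1 and 2, all carrying an amount label of 0.2 µg (the 0.2 set). Cells transfected with miR-365a were set against NC replicates 3 and 4, all labelled 0.6 µg (the 0.6 set). NC is the control microRNA. Replicate numbers were assigned here, since the labels give none. The labels also give neither dose nor time of transfection, nor whether the replicates come from separate cultures. The p-values therefore cover the spread of these arrays alone.

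Interleukin-1, TNF and interleukin-6 family cytokines are secreted proteins that bind receptors on leukocytes, fibroblasts and keratinocytes. The colony-stimulating factors drive the growth and maturation of macrophages and granulocytes, and Ptgs2 (COX-2) makes the precursor of prostaglandins. Keratinocytes and skin carcinomas can make many of these factors themselves. Their mRNAs are short-lived, and many carry AU-rich elements to which decay proteins bind. MicroRNAs pair through their seed (bases 2 to 8) with sites in mRNAs and lower the level or translation of those mRNAs.

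The transfection labels name miR-193b and miR-365a but give no arm or sequence, so the forms below are assumed. Their sequences are given first, because the seed defines what each can pair with. They are the mature mouse forms in RefSeq (GRCm38.p6), with the seed in capitals.
mmu-miR-193b-3p: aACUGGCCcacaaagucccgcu
mmu-miR-365-3p: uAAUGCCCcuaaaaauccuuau
The first is encoded at chr16:13449570-13449591 (plus strand). The second is encoded at chr16:13453895-13453916 and again at chr11:79726467-79726488 (both plus strand). The seeds share 5 letters at matching positions and belong to different seed families. None of the 12 probes held a match to either seed, against 0.294% of all probes for the miR-193b seed and 0.312% for the miR-365 seed. Target sites in the transcripts were not analysed here.

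All 10 keratinocyte markers of the list used (among them Krt5, Krt14 and Trp63) were well above background on every array. Of 10 leukocyte markers, 5 to 7 were well above background on the miR-365a arrays, against 5 to 6 on NC of that set, and 5 on the miR-193b arrays, against 5 on theirs. Cd14, Itgam, Csf1r, Cd3e and Cd68 were so on all 8 arrays, Ptprc on 2, and Fcgr3 and Lyz2 on none. Of 7 fibroblast markers, 3 to 4 were well above background on the miR-365a arrays, against 2 on NC arrays of that set, and 1 to 2 on the miR-193b arrays, against 1 on their NC arrays. Pdgfra was so on all 8 arrays, Col1a2 on 4, and Col1a1 and Pdgfrb on 2 each. Dcn, Lum and Col3a1 were not well above background on any array. Called markers after miR-365a were Csf1r, Pdgfrb, Itga6 and Krt8. Pdgfrb gave -5.28 and -5.10 on the miR-365a arrays, against -7.66 and -7.38 on NC, where it was not well above background. It met the filter through the miR-365a arrays alone, so its limma adjusted p of 0.00896 is not read as support for a rise. With normexp its difference was 0.42 and uncalled (limma adjusted p = 0.0624). Itga6 fell at its main probe (-0.80 ± 0.14, limma adjusted p = 0.0171), while its second probe gave 0.18 (not called). Krt8 rose (0.61 ± 0.15, limma adjusted p = 0.0400). After miR-193b the endothelial marker Esam rose (0.89 ± 0.11, limma adjusted p = 0.0243), while the median difference over the 3 endothelial markers tested was -0.02. The summed level of the 5 endothelial markers was 1.33 to 1.56 on the miR-193b arrays, against 1.20 to 1.64 on their NC arrays. Each of these 4 calls was lost in some fits without 1 array (for Esam in all 8), with adjusted p of 0.0525 to 0.0601 for Pdgfrb, 0.0519 to 0.0970 for Itga6, 0.0502 to 0.180 for Krt8 and 0.0514 to 0.0962 for Esam. That of Esam was also lost with slide as a fixed block (adjusted p = 0.121). Their part in the results below was not tested. Of 43020 gene spots, the share well above background was 58.9% to 62.1% on arrays labelled 0.6 and 51.4% to 54.6% on those labelled 0.2. All RNA integrity numbers were 10. NC replicate 1 and miR-193b replicate 1 shared a slide (slide 1), NC replicate 2 and miR-193b replicate 2 each had another, and the whole 0.6 set lay on a single slide. With slide as a fixed block, the miR-365a comparison is therefore that of the 0.6 set fitted alone. The miR-193b difference then rests on slide 1 alone, with 1 array against 1. That fit leaves no spread within the 0.2 set, so its adjusted p-values use the spread of the 0.6 set.

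At the brightest probe of each gene, 2 of the 9 tested genes were called, both after miR-365a, where 15.9% of all genes were. Csf3, the granulocyte colony-stimulating factor, fell 2.67-fold against NC, and Ptgs2, the inducible prostaglandin synthase, fell 2.24-fold. Csf1, the macrophage colony-stimulating factor, rose about 4-fold after miR-365a at 2 of its 3 probes, which share 31 bases. Of all single probes, 15.8% were called after miR-365a. The Csf1 call was lost at both probes without miR-365a replicate 2, and the brightest probe gave a smaller, uncalled difference. After miR-193b none of the 9 measured genes passed the test, although Csf3 was 2.51-fold lower there too (limma adjusted p = 0.0758). The effects of the microRNAs on Csf3 were not shown to differ (limma adjusted p = 0.930). The calls of Csf3 and Ptgs2 were both lost with no filter on dim probes and with each amount set fitted alone. Il6 was not well above background on any of the 8 arrays and was not tested.

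Levels are log2 signals relative to the 75th percentile of the same array, so that 0 is the signal below which 75% of gene spots lie. They order arrays for 1 probe and are not compared between genes. Differences are microRNA minus NC of the same set, with standard errors (SE) of a limma fit over all 8 arrays, and genes were called at an adjusted p under 0.05. With 2 arrays against 2, an exact permutation test of a single gene cannot give a two-sided p below 0.333, so the limma values are given.

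Csf3 had levels of -1.29 and -0.98 on the miR-365a arrays, against -0.20 and 0.76 on the NC arrays of the 0.6 set. On the miR-193b arrays it had -1.18 and -1.05, against 0.14 and 0.27 on the NC arrays of the 0.2 set. In each set the microRNA arrays lay below the NC arrays. Groups did not overlap, in either direction, for 61.5% of all genes after miR-365a and 52.4% after miR-193b. The fall after miR-365a was -1.42 ± 0.31 (log2 difference, SE, n = 2 and 2, limma adjusted p = 0.0295). After miR-193b the difference was nearly the same size, -1.33 ± 0.31, but did not pass the threshold (limma adjusted p = 0.0758). Slide 1 alone gave -1.33 and slides 2 and 3 gave -1.33 for miR-193b. The effects of the microRNAs on Csf3 differed by -0.09 (miR-365a minus miR-193b, 95% interval -1.14 to 0.96, limma adjusted p = 0.930). Without NC replicate 3 the miR-365a difference was -1.90 (adjusted p = 0.0272), and without NC replicate 4 it was -0.93 (adjusted p = 0.0491). The call was lost without miR-365a replicate 1 (-1.26, adjusted p = 0.142), without miR-365a replicate 2 (-1.57, adjusted p = 0.0959) and, narrowly, without either miR-193b array (adjusted p just above 0.05). It was lost too with slide as a fixed block (adjusted p = 0.0698) and with no filter on dim probes (adjusted p = 0.0800). The miR-193b call appeared without NC replicate 3 or without NC replicate 4, which are not part of that comparison. The difference stayed at -1.33 there, so only the shared estimate of the spread and the adjustment changed. The same holds wherever a call changed without an array of the other set.

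Ptgs2 gave 1.42 and 1.20 on the miR-365a arrays, against 2.12 and 2.83 on their NC arrays. On the miR-193b arrays the levels were 1.85 and 1.40, against 2.26 and 1.91 on theirs. In both sets the microRNA arrays lay below the NC arrays. The fall after miR-365a was -1.16 ± 0.28 (SE, n = 2 and 2, limma adjusted p = 0.0400). The miR-193b difference of -0.46 ± 0.28 did not pass (limma adjusted p = 0.384), and the effects were not shown to differ (-0.70, 95% interval -1.66 to 0.26). Without NC replicate 4, its brightest array, the miR-365a difference was -0.81 (adjusted p = 0.129). The call was also lost without miR-365a replicate 1 (-1.27, adjusted p = 0.123), without miR-365a replicate 2 (-1.06, adjusted p = 0.178) and, narrowly, without either miR-193b array (adjusted p = 0.0507), with slide as a fixed block (adjusted p = 0.0596) and with no filter on dim probes (adjusted p = 0.104). RefSeq gives the Ptgs2 promoter (250 bases before the start, chr1:150099781-150100030, plus strand, GRCm38.p6), which is shown because this gene was called.
Ptgs2 promoter: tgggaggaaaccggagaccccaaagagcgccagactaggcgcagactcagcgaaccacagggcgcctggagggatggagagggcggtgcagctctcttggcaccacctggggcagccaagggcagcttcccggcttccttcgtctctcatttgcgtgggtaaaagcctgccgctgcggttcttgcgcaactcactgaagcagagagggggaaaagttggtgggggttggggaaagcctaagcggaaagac
It held no match on either strand to the letters searched, which were GGGA and CC set 4 bases apart (NF-kB, in 17.6% of 32851 promoters), TGANTCA (AP-1, in 6.75%) and TATAAA (the TATA box, in 12.4%).

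**Figure D1:**
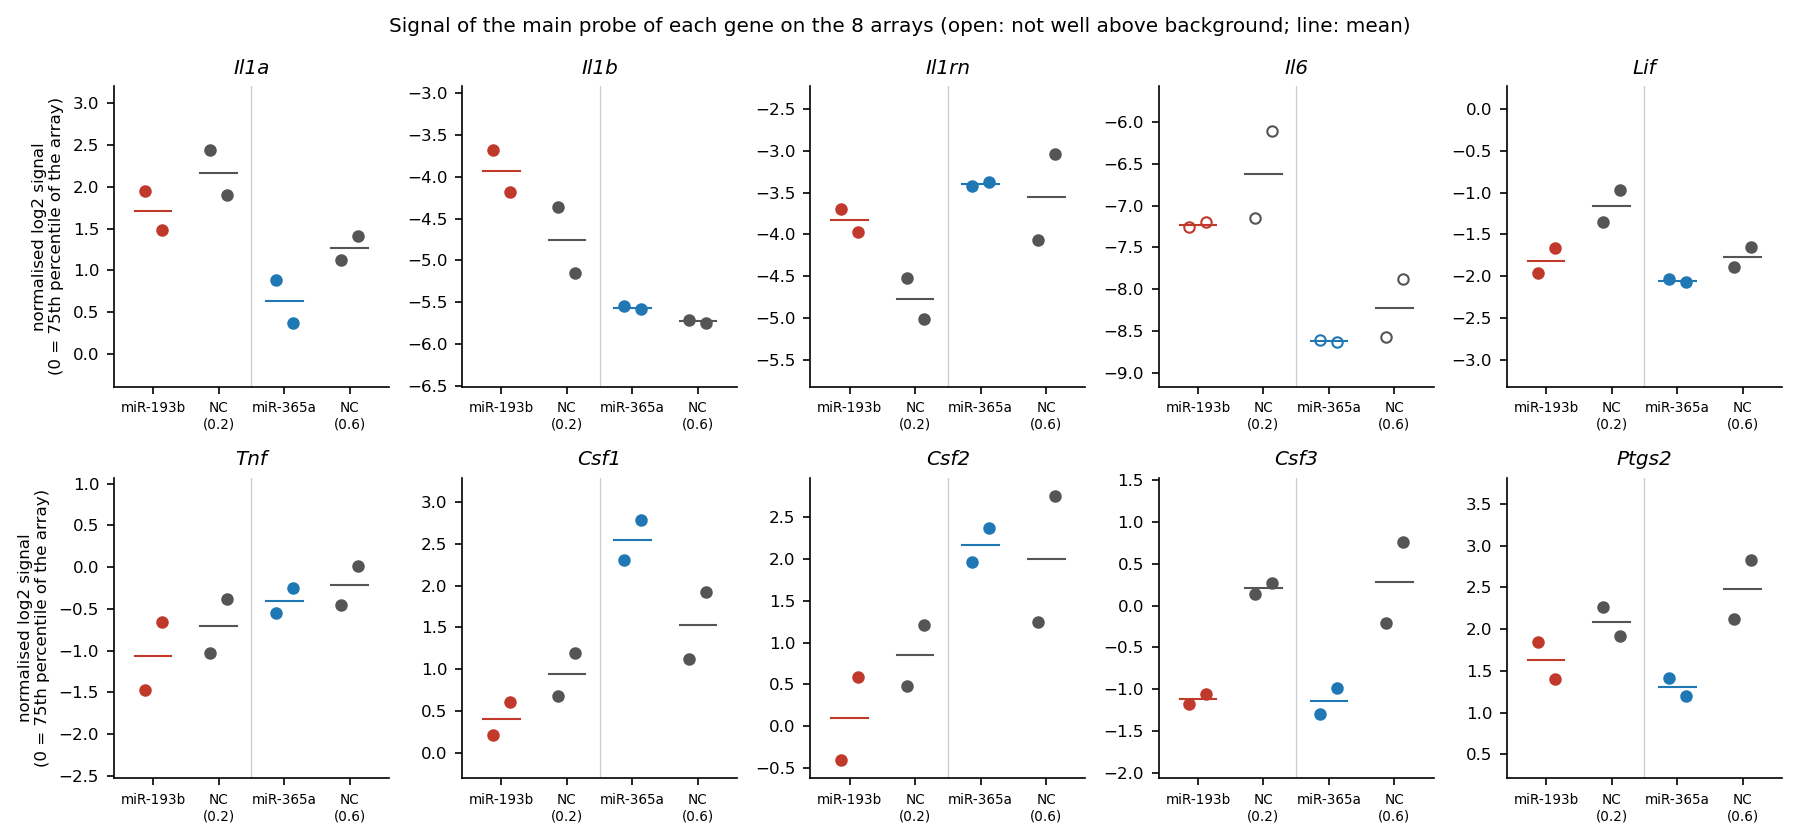
Normalised log2 signal of the main probe of each of the 10 genes (y axis, 0 is the 75th percentile of the array) on the 8 arrays, with microRNA arrays left of the NC arrays of their set and lines at group means of 2 arrays. Open circles are arrays on which the probe was not well above background, as for Il6 throughout. In Csf3 the microRNA arrays lie below the NC arrays of their set.

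Csf1 was called after miR-365a at some of its probes and not at its brightest, though all shared the direction of the difference in each set. Its brightest probe, A_51_P195506 (mm9 chr3:107544333-107544392, minus strand), had levels of 2.30 and 2.78 on the miR-365a arrays, against 1.12 and 1.93 on NC. On the miR-193b arrays it had 0.21 and 0.60, against 0.68 and 1.19 on NC. The groups did not overlap in either set, above NC after miR-365a and below it after miR-193b. Neither difference passed the test, at 1.02 ± 0.34 after miR-365a (limma adjusted p = 0.0925) and -0.53 ± 0.34 after miR-193b (limma adjusted p = 0.399). The other probes, A_55_P2169669 (mm9 chr3:107548521-107548580) and A_55_P2017914 (mm9 chr3:107548550-107548609), share 31 bases, lie 4128 bases from the first, and are assigned in the files to another RefSeq transcript.

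A_55_P2169669 had 0.93 and 1.60 on the miR-365a arrays, against -1.14 and -0.43 on NC. On the miR-193b arrays it had -2.48 and -2.58, against -1.23 and -1.36 on NC. A_55_P2017914 had 0.80 and 1.49 on the miR-365a arrays, against -1.17 and -0.51 on NC, and -2.47 and -2.74 on the miR-193b arrays, against -1.39 and -1.53 on NC. The rise after miR-365a was 4.13-fold for A_55_P2169669 (2.04 ± 0.30, limma adjusted p = 0.00972 over 23275 probes) and 3.95-fold for A_55_P2017914 (1.98 ± 0.30, limma adjusted p = 0.0109), where 15.8% of single probes were called. The miR-193b differences were -1.24 ± 0.30 (limma adjusted p = 0.0855) and -1.14 ± 0.30 (limma adjusted p = 0.105), both below the NC arrays but not called, where 2.31% of probes were.

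The effects of the microRNAs on these probes differed, by 3.28 ± 0.42 for A_55_P2169669 and 3.12 ± 0.42 for A_55_P2017914 (miR-365a minus miR-193b, limma adjusted p = 0.0205 and 0.0229), where 3.34% of probes were called. For A_55_P2169669 the rise was lost without miR-365a replicate 2 (adjusted p = 0.0557), and for A_55_P2017914 without miR-365a replicate 2 (adjusted p = 0.0599) or NC replicate 3 (adjusted p = 0.0576). In 7 of the 8 fits that left out an array the difference between the effects also missed the threshold, with adjusted p of 0.0569 to 0.0746 for A_55_P2169669 and 0.0640 to 0.0773 for A_55_P2017914. With slide as a fixed block it was 3.29 and 3.06 (adjusted p = 0.0824 and 0.0882), and with no filter on dim probes it was uncalled at both probes (adjusted p = 0.0778 and 0.0833). The mean over the Csf1 probes, which includes these probes, rose after miR-365a (limma adjusted p = 0.0165). The difference between the effects passed with that mean (limma adjusted p = 0.0323), which is not separate support. Whether the effects differed between the probes of the gene was not tested.

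The Csf1 promoter in RefSeq (chr3:107760470-107760719, minus strand, GRCm38.p6) is printed because it holds 3 matches to the NF-kB letters, read on both strands and shown in capitals, of which 2 overlap.
Csf1 promoter: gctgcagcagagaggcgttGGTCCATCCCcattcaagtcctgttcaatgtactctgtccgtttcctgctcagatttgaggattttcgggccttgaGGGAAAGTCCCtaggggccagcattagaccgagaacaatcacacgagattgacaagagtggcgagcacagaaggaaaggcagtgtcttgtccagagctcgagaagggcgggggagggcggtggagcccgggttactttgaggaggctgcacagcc
Of the 9 genes with a promoter entry (all but Csf3), NF-kB letters were in 4 (Csf1, Il1rn, Il6 and Lif), AP-1 letters in 4 (Il1a, Il1rn, Il6 and Lif) and TATA letters in 3 (Il1a, Il1b and Tnf). These matches describe letters in the window and say nothing of binding.

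**Figure D2:**
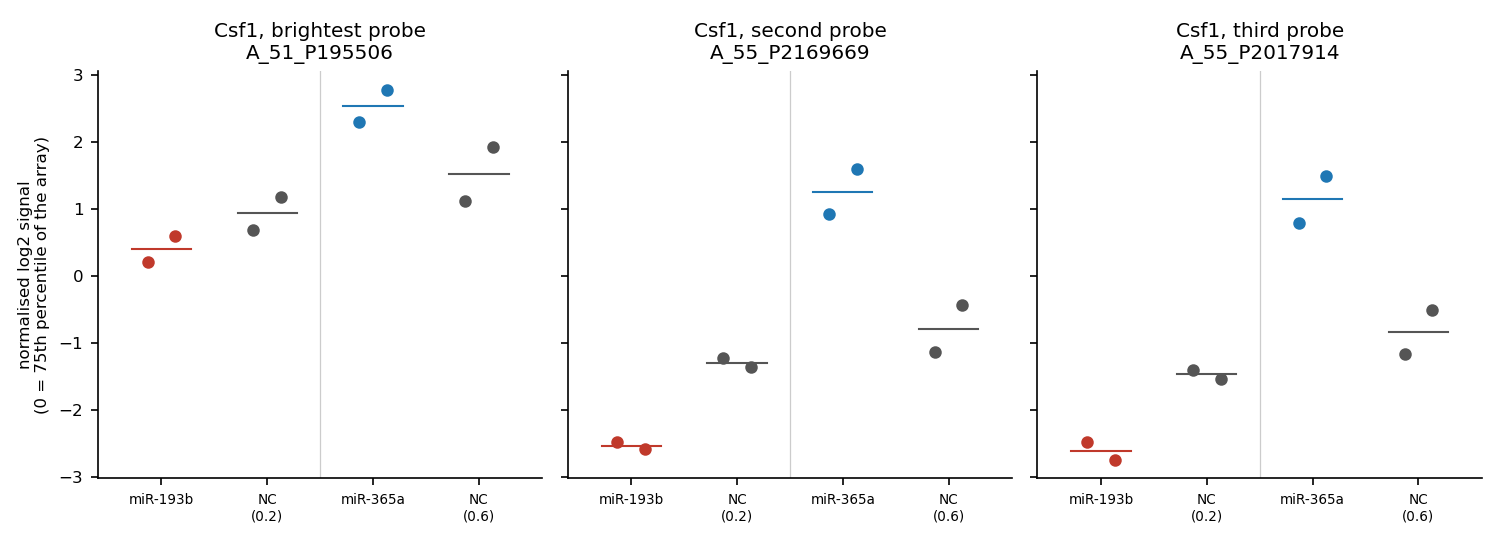
Normalised log2 signal of the 3 Csf1 probes (y axis) on the 8 arrays, microRNA left of NC in each set, with lines at means of 2 arrays. The miR-365a arrays lie above and the miR-193b arrays below the NC arrays of their set for all 3 probes.

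Csf2, the granulocyte-macrophage factor, gave 1.96 and 2.37 on the miR-365a arrays, against 1.24 and 2.75 on NC, so the NC pair spanned the treated pair. It gave -0.40 and 0.59 on the miR-193b arrays, against 0.48 and 1.21 on NC, which also overlapped. The differences were 0.17 ± 0.57 after miR-365a and -0.75 ± 0.57 after miR-193b (limma adjusted p = 0.896 and 0.474). The file places 28 of the 60 bases of this probe on the genome.

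Il1a, the interleukin-1 alpha gene, had 0.88 and 0.37 on the miR-365a arrays, against 1.12 and 1.41 on NC, and the groups did not overlap. It had 1.95 and 1.48 on the miR-193b arrays, against 2.44 and 1.90 on NC, which overlapped. Neither difference was called (-0.64 ± 0.28, limma adjusted p = 0.180, and -0.45 ± 0.28, limma adjusted p = 0.388). Il1b, which is secreted after cleavage by caspase-1, gave -5.55 and -5.58 on the miR-365a arrays, against -5.71 and -5.75 on NC. It gave -3.68 and -4.18 on the miR-193b arrays, against -4.36 and -5.15 on NC. The miR-193b difference was 0.83 ± 0.28 (limma adjusted p = 0.170) and that of miR-365a was 0.17 ± 0.28 (limma adjusted p = 0.774).

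Il1rn, which blocks the interleukin-1 receptor, gave -3.70 and -3.97 on the miR-193b arrays, against -4.52 and -5.01 on NC. It gave -3.42 and -3.38 on the miR-365a arrays, against -4.06 and -3.03 on NC, where the NC pair spanned the treated pair. Its miR-193b difference of 0.94 ± 0.34 was uncalled (limma adjusted p = 0.191), as was that of miR-365a at 0.15 ± 0.34 (limma adjusted p = 0.844). Il1b and Il1rn lay above NC on both miR-193b arrays, but at low signal. Before centring, Il1b signals were 92.1 and 62.4 on the miR-193b arrays, against 79.7 and 39.1 on NC. Those of Il1rn were 90.8 and 72.4, against 71.1 and 43.1. With normexp the miR-193b differences were 0.50 for Il1b and 0.59 for Il1rn. With the deposited log2 values the miR-193b differences were 0.33 for Il1b and 0.43 for Il1rn, and without NC replicate 1 or NC replicate 2 that of Il1b was 1.23 or 0.43.

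Lif, an interleukin-6 family cytokine, had -1.96 and -1.67 on the miR-193b arrays, against -1.36 and -0.97 on NC. It had -2.04 and -2.08 on the miR-365a arrays, against -1.89 and -1.65 on NC. The groups did not overlap in either set, and the differences were -0.65 ± 0.18 after miR-193b (limma adjusted p = 0.113) and -0.29 ± 0.18 after miR-365a (limma adjusted p = 0.347). Tnf, tumour necrosis factor, gave -1.47 and -0.65 on the miR-193b arrays, against -1.03 and -0.38 on NC. On the miR-365a arrays it gave -0.55 and -0.25, against -0.45 and 0.02 on NC. These overlapped in both sets, with differences of -0.35 ± 0.35 and -0.18 ± 0.35 (limma adjusted p = 0.578 and 0.799). Il6 signals were -7.26 and -7.19 on the miR-193b arrays, against -7.15 and -6.11 on NC, and -8.60 and -8.63 on the miR-365a arrays, against -8.57 and -7.88 on NC, all not well above background.

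**Figure D3:**
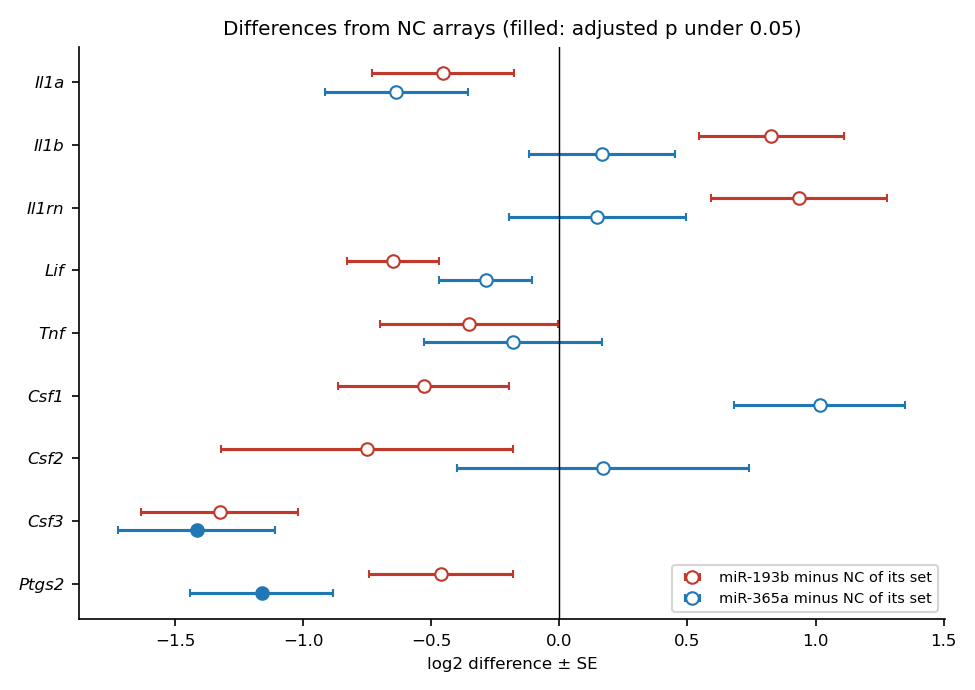
Log2 difference from NC arrays of the same set (x axis, error bars are SE of the limma fit) for the 9 tested genes, miR-193b above miR-365a in each row. Filled symbols passed an adjusted p under 0.05, which only Csf3 and Ptgs2 after miR-365a did at the main probes.

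The 9 tested genes were well above background on all 8 arrays, so the filter did not depend on a group. After miR-365a, 2 of 9 fell, 0 rose and 7 were not called, where 15.9% of 17850 genes were called (7.84% higher and 8.05% lower). After miR-193b 0 of 9 were called by limma, where 2.9% of genes were, and 4 of 9 had an unadjusted p under 0.05 against 21.4% of all genes. After miR-365a 3 of 9 did, against 31.3%. Arrays did not overlap for 6 of 9 genes in each comparison, against 61.5% of genes after miR-365a and 52.4% after miR-193b. The median difference of the 9 was -0.18 after miR-365a and -0.46 after miR-193b, against 0.02 and 0.05 over all genes. At the main probes 0 of 9 genes differed between the effects of the microRNAs (3.54% of all genes did), and 1 had an unadjusted p under 0.05, namely Csf1, against 20.2% of all genes.

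The NC arrays of a set differed from each other more for these genes than for most. NC replicate 4 was above NC replicate 3 for 8 of 9 genes, against 54.0% of all genes, and the median gap was 0.70 against 0.18 over all genes. The widest was that of Csf2, at 1.51, and 6.49% of all genes had a gap at or above that median. The gap between NC replicates 1 and 2 had a median of 0.50 against 0.23, that of the miR-193b pair 0.45 against 0.17 and that of the miR-365a pair 0.30 against 0.17. Between the sets, NC of the 0.6 set against NC of the 0.2 set, 0 of 9 genes were called by limma (15.6% of all genes were) and 4 of 9 had an unadjusted p under 0.05 (34.7% of all genes did). The smallest adjusted p was that of Il1rn (1.22 ± 0.34, limma adjusted p = 0.0606). Amount label and slide cannot be told apart there.

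Genes of the same pathways were counted by list. Over all genes 15.9% were called after miR-365a (7.84% higher, 8.05% lower) and 2.9% after miR-193b, and the counts below are to be read against these shares. After miR-365a, 2 of 11 receptor genes rose, where 7.84% of all genes did. Csf1r, the receptor of Csf1, rose 3.72-fold (1.90 ± 0.31, limma adjusted p = 0.0133), with levels of 1.74 and 1.54 on the miR-365a arrays, against -0.53 and 0.02 on NC. Its 3 probes gave 2.72, 1.90 and 0.33, of which the last was not called. The call was lost without miR-365a replicate 1 (adjusted p = 0.0791), miR-365a replicate 2 (adjusted p = 0.0648) or NC replicate 3 (adjusted p = 0.0723). Csf1r is also a leukocyte marker, and the summed level of the leukocyte list, relative to the 75th percentile, was 9.52 to 10.5 on the miR-365a arrays, against 6.71 to 8.60 on NC of that set. Without Csf1r the sum was 6.17 to 7.59 on the miR-365a arrays, against 6.02 to 7.59 on NC. Il1rap, the accessory chain of the interleukin-1 receptor, rose by 0.91 at its main probe (limma adjusted p = 0.0159), while its second probe gave -1.05 (not called). The Il1rap call was lost without miR-365a replicate 1, NC replicate 3 or miR-365a replicate 2 (adjusted p = 0.0784, 0.0776 and 0.0919).

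Of 8 other interleukin-1 and interleukin-6 family ligands, 2 fell after miR-365a, namely Cntf, a neurotrophic cytokine (-1.49 ± 0.23, limma adjusted p = 0.0112), and Il11 (-1.33 ± 0.23, limma adjusted p = 0.0151), where 8.05% of all genes fell. The Il11 difference was smaller with normexp (-0.82) and with the deposited log2 values (-0.71), and called with both. Of 7 other haematopoietic growth factors, Il15, which sustains natural killer cells, rose (1.52 ± 0.38, limma adjusted p = 0.0441). Il3, a growth factor of early blood cells, was not well above background on the miR-365a arrays (-6.89 and -6.64) but was on NC (-4.99 and -3.37), so in this comparison it met the filter through NC alone. Its difference of -2.59 (limma adjusted p = 0.0219) was -1.04 with normexp and -0.86 with the deposited log2 values, ran from -3.40 without NC replicate 3 to -1.78 without NC replicate 4, and was uncalled with slide as a fixed block (adjusted p = 0.0525). In the prostaglandin list 2 of 12 genes rose, where 7.84% of all genes did, the synthase Ptges2 (0.89 ± 0.16, limma adjusted p = 0.0186) and the prostaglandin-inactivating reductase Ptgr1 (0.94 ± 0.19, limma adjusted p = 0.0234), while Ptgs2 fell. Each of these calls was lost without some array of the 0.6 set. For Il11 (adjusted p = 0.0618 to 0.0894), Il15 (0.0922 to 0.196), Ptges2 (0.0509 to 0.106) and Ptgr1 (0.0553 to 0.127) this held for each of the 4 arrays. For Cntf it held for NC replicate 3 and miR-365a replicate 2 (adjusted p = 0.0678 and 0.0701), and for Il3 for miR-365a replicates 1 and 2 (adjusted p = 0.110 and 0.0921). The Il15 difference was 0.48 and uncalled with normexp (adjusted p = 0.0551), and 0.55 and called with the deposited log2 values.

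In the NF-kB and interleukin-1/TNF signalling list, 5 of 27 genes rose and 1 fell after miR-365a, where 7.84% of all genes rose and 8.05% fell. Myd88, the adaptor of interleukin-1 and Toll-like receptors, fell to -0.78 and -0.81, against 0.43 and 0.63 on NC (-1.32 ± 0.14, limma adjusted p = 0.00475), a call kept in every fit tried. Cyld (0.95 ± 0.15) and Tnip1 (1.13 ± 0.20), which both restrain NF-kB signalling, rose (limma adjusted p = 0.0126 and 0.0172), as did Ikbkg, the regulatory subunit of the IκB kinase (0.67 ± 0.13, limma adjusted p = 0.0192). After miR-193b only Cyld was called in these lists, rising 2.30-fold (1.20 ± 0.15, limma adjusted p = 0.0243). Its second probe gave 1.45 (limma adjusted p = 0.0657). The miR-365a calls of Cyld, Tnip1 and Ikbkg were lost without miR-365a replicate 1, miR-365a replicate 2 or NC replicate 3, with adjusted p of 0.0540 to 0.0795 for Cyld, 0.0677 to 0.0982 for Tnip1 and 0.0933 to 0.105 for Ikbkg. The miR-193b call of Cyld was lost without NC replicate 1 or any of the 4 microRNA arrays (adjusted p = 0.0632 to 0.0975), with slide as a fixed block (adjusted p = 0.0985), with its set fitted alone (adjusted p = 0.136) and with no filter on dim probes (adjusted p = 0.0991).

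Among 11 genes for decay and AU-rich element binding, Zfp36l1, which promotes mRNA decay, rose (0.84 ± 0.15, limma adjusted p = 0.0177) after miR-365a. The roquin genes Rc3h1 (-0.64 ± 0.13, limma adjusted p = 0.0271) and Rc3h2 (-0.82 ± 0.19, limma adjusted p = 0.0355) fell, although the second Rc3h1 probe gave -0.01. Of 6 genes for interleukin-1 processing and release, Adam17, the protease that releases TNF, fell (-0.89 ± 0.18, limma adjusted p = 0.0253), with -0.50 at its second probe. These 4 calls were lost without each of the 4 arrays of the 0.6 set, with adjusted p of 0.0574 to 0.103 for Zfp36l1, 0.0637 to 0.146 for Rc3h1, 0.0987 to 0.173 for Rc3h2 and 0.0692 to 0.133 for Adam17, and that of Rc3h2 also without either miR-193b array (adjusted p = 0.0614). With no filter on dim probes the miR-365a calls of Il1rap, Tnip1, Zfp36l1, Ptges2, Il3, Ikbkg, Ptgr1, Adam17, Rc3h1, Rc3h2 and Il15, and of the markers Itga6 and Krt8, were lost (adjusted p = 0.0549 to 0.116). With the mean over probes those of Adam17 (adjusted p = 0.0734), Rc3h1 (0.182) and Itga6 (0.240) were lost, with slide as a fixed block those of Ikbkg (0.0507) and Rc3h1 (0.0617), and with quantile normalization that of Krt8 (0.0776). Medians of the 7 lists ran from -0.43 to 0.46 after miR-365a and from -0.19 to 0.51 after miR-193b.

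**Figure D4:**
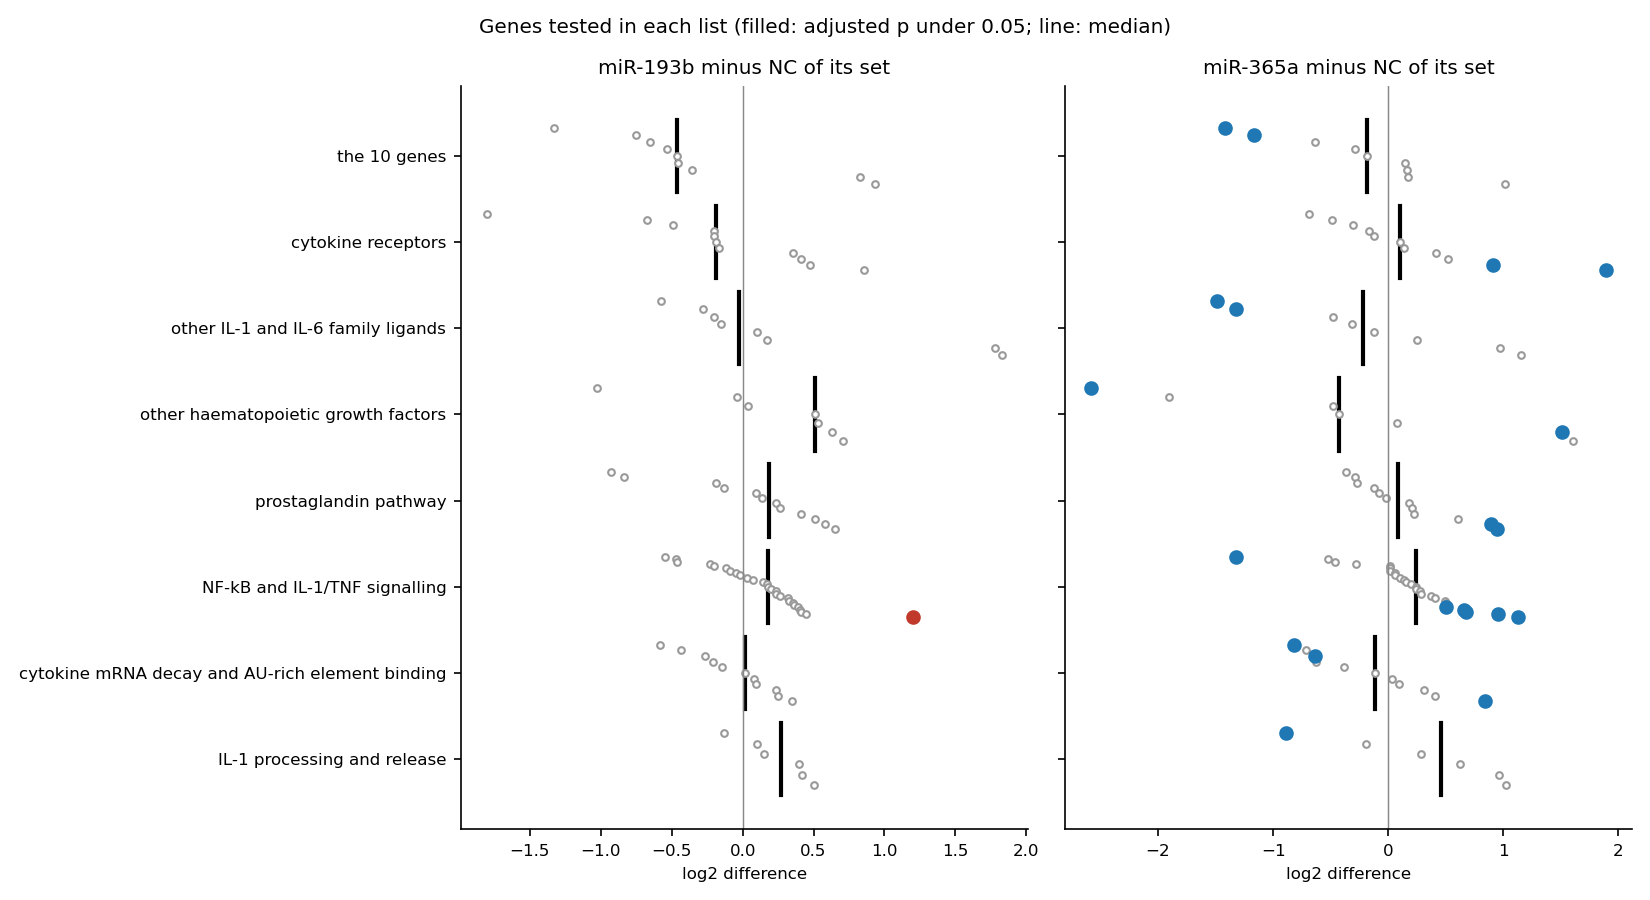
Log2 differences (x axis) of the tested genes of each list, miR-193b at left and miR-365a at right, with medians as vertical lines. Filled points passed an adjusted p under 0.05 (only Cyld in the left panel), and small open points did not.

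For likeness of pattern, the gene with the widest range of group means (Csf1, main probe, 2.14) was correlated over the 8 arrays with the other genes well above background on all of them. Of the 14567 genes compared, Tmem184b (r = 0.989), Pld1 (r = 0.986), Slc27a4 (r = 0.985), Cep250 (r = 0.983) and Vps37a (r = 0.982) were closest. These 8 points share their set and slide, so the values are a description only.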

How the data were processed

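RNA levels were measured on 8 single-colour arrays of transfected mSCC-20 cells. The authors deposited each spot's intensity, which the file headers give as background-subtracted processed signal (Agilent Feature Extraction, version 10.7.3.1) without normalization between arrays. Deposited log2 values of the same arrays, with medians of 7.11 to 7.12 over gene spots, were used as an alternative. They correlated with the scanner values of their own array at r of 0.965 to 0.981, and their background correction is not given in the sources used here. The submitters' processing notes name limma.

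Spots flagged as non-uniform or population outliers were left out, log2 signals were centred on the 75th percentile of each array, and repeated spots were averaged per probe. Names of the 39429 probes came through accessions for 27508, through symbols for 3544, through synonyms for 404 and from the files for 7973. The brightest probe stood for a gene. The 17850 genes tested had a probe well above background on each array of at least 1 combination of transfection and amount. Limma 3.58.1 (lmFit and eBayes, R 4.3.3) was fitted on all 8 arrays with terms for the amount set and each microRNA (4 residual degrees of freedom, prior 2.30), with Benjamini-Hochberg adjustment over all genes or, for single probes, over 23275 probes. The steps were tested on simulated data. The number of arrays limits the precision.

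All 10 genes are named. Of each list, up to 4 called genes with the smallest p per comparison are named. The genes and lists were chosen with earlier results of these data known. Probe positions are those of the files (mm9), and gene models of that build were not used here. RefSeq sequences are of GRCm38.p6. Alternatives were normexp background correction, quantile normalization, the deposited log2 values, other filters and variance models, each set alone, slide as a block, the mean over probes and leaving out each array.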

Additional observations from a re-analysis of the deposited data

Results flagged for a closer look

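The effects of miR-365a and miR-193b differed at A_55_P2169669, a Csf1 probe, by 3.28 on the log2 scale (miR-365a minus miR-193b, limma adjusted p = 0.0205), with the miR-365a arrays above and the miR-193b arrays below the NC arrays of their set. The same test gave 3.12 for A_55_P2017914 (limma adjusted p = 0.0229), which shares 31 bases with it and so is not a separate measurement of the same kind. At the brightest Csf1 probe the difference was 1.55 (limma adjusted p = 0.139). With slide as a fixed block the difference was 3.29 for A_55_P2169669 and 3.06 for A_55_P2017914, and neither was called (adjusted p = 0.0824 and 0.0882). In that fit the miR-193b effect rests on slide 1 alone. With no filter on dim probes the difference was called at neither probe (limma adjusted p = 0.0778 and 0.0833). The miR-193b and miR-365a comparisons come from different amount sets, whose part in the difference cannot be told apart.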

How the results depend on the processing

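Replicate numbers were assigned here because the labels give none, and arrays were not paired in the main fit. The count of the 10 genes called after miR-193b was 0, and 1 (Csf3) with normexp, the deposited log2 values, probes above background on all 8 arrays or a trended robust variance, and 0 to 1 over the fits without 1 array. After miR-365a it was 2, but 0 with no filter on dim probes, with each set fitted alone or with slide as a fixed block, and 0 to 2 without 1 array. Under the first 2 of these settings the limma adjusted p of Csf3 was 0.0800 and 0.0698, and that of Ptgs2 0.104 and 0.0596. For miR-365a, slide as a fixed block is the same fit as the set alone, since the 0.6 set lay on a single slide. The genes whose effects differed were 0, and 1 with the mean over probes (Csf1). For all genes after miR-193b the count of 517 became 1001 with normexp, 844 with the deposited values, 11 with no filter, 891 with the all-array filter, 1025 with a trended robust variance, 0 with the set alone and 171 with slide as a fixed block, and 8 to 276 without 1 array. The 2836 genes after miR-365a became 1055 with no filter, and 601 to 2866 without 1 array. Il1b after miR-365a turned to -0.0058 with normexp, and Il1rap to -0.069 with the mean over probes. Without 1 array, differences that changed sign ranged from -0.45 to 0.085 (Il1a, miR-365a minus miR-193b), -0.37 to 0.66 (Il1rn, miR-365a), -0.58 to 0.93 (Csf2, miR-365a), -0.57 to 0.39 (Csf3, miR-365a minus miR-193b), -0.76 to 0.055 (Tnf, miR-193b), -0.42 to 0.050 (Tnf, miR-365a) and -0.24 to 0.58 (Tnf, miR-365a minus miR-193b). The cause was not tested. With 2 arrays a group, small changes may go uncalled, and for Il6 the signal over background sets the limit.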
